A study of Mus musculus with 6 samples.

Results

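Collagen genes encode the chains of the collagens, the main structural proteins of the extracellular matrix. They were taken here as every gene whose symbol has the form Col, a number, the letter a and a number, as in Col1a1, with the symbol found from the RefSeq accession of each non-control probe. Of 20972 genes with a symbol on the array, 43 were collagen genes, covered by 63 probes. They comprised 11 fibrillar genes, 6 basement membrane genes (Col4a1 to Col4a6) and 26 genes of other types. A gene was tested if some group had both of its arrays well above background for a probe, and 30 collagen genes passed: 8 fibrillar, 6 basement membrane and 16 other.

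Total RNA from mouse tissue that the labels call gastrocnemius, a calf muscle, had been hybridised to 6 Agilent arrays, 2 for each of 3 groups. The B10_tap mice were C57BL/10, with intact dystrophin, and drank tap water. The MDX_tap mice were of the MDX strain and drank tap water too, while the MDX_JJ101 mice, also MDX, drank JJ101, a water the labels describe as bioceramic. Each group received its water for 10 months, and the labels used here give no age at the start. The MDX strain, shared by MDX_tap and MDX_JJ101, lacks functional dystrophin through a mutation carried in every cell, not in muscle fibres alone, and serves as a model of Duchenne muscular dystrophy. Replicate numbers are given with no word on separate mice, so the p-values measure only the spread between these samples, which may be technical.

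Collagen chains assemble in threes into a triple helix. Fibrillar collagens form the banded fibrils that give tissue its tensile strength, and they accumulate when muscle scars. Type IV collagens form the sheet-like network of the basement membrane that wraps each muscle fibre and capillary, while the other types decorate fibrils, anchor basement membranes or form beaded filaments and short-chain networks. In muscle, most fibrillar collagen is made by fibroblasts in the connective tissue between fibres.

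All 6 arrays lay on 1 slide, with B10_tap in columns 1 and 2 of row 1, MDX_tap in columns 3 and 4 of row 1, and MDX_JJ101 in columns 3 and 4 of row 2. JJ101 treatment and slide row thus cannot be told apart, and neither can genotype and slide column. Between 42.5% (MDX_JJ101 replicate 2) and 51.6% (B10_tap replicate 1) of the spots of an array were well above background, which sets how dim a change could be measured. The labelled tissue was checked against 11 limb muscle genes and 8 heart genes. Of the heart genes, 7, including Myh6, Tnnt2 and Nkx2-5, were well above background on all 6 arrays, as were only 3 of the limb muscle genes (Acta1, Ckm and Pvalb). As log2 levels, Myh6 read 10.2 to 10.4, Tnnt2 9.74 to 10.1, Ckm 5.94 to 7.53 and Acta1 5.40 to 6.82. Myh4 read 2.62 and 2.28 in B10_tap, 0.91 and 3.53 in MDX_tap, then -5.52 and -5.42 in MDX_JJ101. Myod1 and Mylpf were well above background on no array. Myh4, Myh1, Myh2 and Actn3, proteins of fast limb fibres, were well above background on all B10_tap and MDX_tap arrays and on no MDX_JJ101 array. The list did not move as one: in MDX_JJ101 against MDX_tap 7 of its 9 tested genes fell, while Ckm, muscle creatine kinase, rose by 1.37 (limma adjusted p = 0.0128), a call lost with spike-in scaling. Its summed linear level, most of it Ckm and Acta1, was 144 and 143 in B10_tap, 144 and 132 in MDX_tap, then 256 and 275 in MDX_JJ101. Between the MDX_tap arrays the 9 tested limb muscle genes differed by a median of 2.38, replicate 2 over replicate 1. The collagen values below come from these same arrays and may not be those of gastrocnemius. The part of tissue make-up in them was not tested. In bulk tissue, fewer cells of a type and less RNA per cell cannot be told apart.

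The stretches just upstream of the start are shown for 3 collagens that lay higher in MDX_tap than in B10_tap, a type I, a type III and a type VIII chain. For a type IV pair that shares its promoter region, the bases between the 2 starts are shown instead. They are RefSeq sequences of the GRCm38.p6 build on the plus strand, 5′ to 3′. Col1a2 lies at chr6:4505498-4505617, Col3a1 at chr1:45311418-45311537 and Col8a2 at chr4:126286674-126286793, each covering the 120 bases before the start. The bases chr8:11312805-11312826 lie between the starts of Col4a1 and Col4a2, which are read in opposite directions and overlap by 22 bases. They thus lie after the start of each gene, not upstream. Capitals mark 3 motifs on either strand: the CAAT box, CCAAT, then the core of the TATA box, TATAA, and the GC box, GGGCGG. Matches on the reverse strand are shown as the plus strand reads, and neighbouring or overlapping matches run together.
Col1a2: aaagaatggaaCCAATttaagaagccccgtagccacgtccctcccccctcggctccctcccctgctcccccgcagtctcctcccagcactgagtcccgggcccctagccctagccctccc
Col3a1: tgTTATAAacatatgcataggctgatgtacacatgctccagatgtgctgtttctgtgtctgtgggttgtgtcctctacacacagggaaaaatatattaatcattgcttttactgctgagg
Col8a2: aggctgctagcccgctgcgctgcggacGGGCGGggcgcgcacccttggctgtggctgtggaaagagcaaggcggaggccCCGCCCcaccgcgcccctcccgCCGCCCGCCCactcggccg
Col4a1 and Col4a2: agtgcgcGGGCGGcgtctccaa

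In these windows Col1a2 held a CCAAT, Col3a1 a TATAA read on both strands, Col8a2 GGGCGG in both orientations and the type IV pair a GGGCGG. Of the 43 collagen genes, 35 matched a RefSeq promoter of 300 bases (250 before the start and 50 after). Either strand held CCAAT in 13 of them (37.1%), against 37.4% of all 32851 promoters. TATAA was in 7 (20.0%), against 24.9%, and GGGCGG in 22 (62.9%), against 35.7%. A collagen gene was counted if any of its promoters held the motif, whereas the share of all promoters counted single promoters. The shares are thus in unlike units. Col4a5 and Col4a6 also lie head to head, with starts 1343 bases apart. These matches describe the letters only.

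A level is a log2 signal with the 75th percentile of its array set to 0, so a difference of 1 is a doubling. The dimmest probes called well above background read between -4.23 and -3.29, depending on the array. Of the 43 collagens, 22 were well above background on all 6 arrays. The 13 that did not pass the filter were Col2a1, Col11a1 and Col24a1 among the fibrillar genes, and Col6a4, Col6a5, Col9a1, Col9a3, Col10a1, Col13a1, Col17a1, Col19a1, Col25a1 and Col28a1 among the other types. Of these only Col9a1, a cartilage collagen, was well above background on any array, 1 of B10_tap. The genes not detected here thus included Col2a1 and Col10a1, collagens of cartilage, and Col17a1, a transmembrane collagen of epithelium. Passing the filter required signal in only 1 group, so the 30 tested genes are not all members.

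The first comparison asked how the collagens of MDX muscle differed from those of C57BL/10 muscle on tap water. Of the 8 tested fibrillar collagens, 6 lay higher on both MDX_tap arrays than on both B10_tap arrays, as did several fibril- or network-associated collagens. Type IV collagens showed smaller differences. The difference was above 0 for 22 of the 30 tested collagens and below 0 for 8, with a median of 0.33 against -0.06 over all 20869 genes tested. The arrays of MDX_tap lay wholly above those of B10_tap in 18 collagens and wholly below in 5; over all genes this held for 24.4% and 37.0%. By limma's test, 0 collagens passed an adjusted p of 0.05 in either direction, as did 0% of all genes upward and 0.0240% downward, and the lowest adjusted p of a collagen was 0.106. At an unadjusted p under 0.05 there were 13 collagens, 11 higher and 2 lower, against 4383 of all genes (1803 higher and 2580 lower).

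The fibrillar genes had a median difference of 0.88, and 6 of the 8 had MDX_tap arrays wholly above B10_tap. Col1a1, which encodes the alpha1 chain of type I collagen, read 2.75 and 2.88 in B10_tap against 4.11 and 4.13 in MDX_tap, 1.31 higher (SE 0.28, 2.47-fold, limma adjusted p = 0.123). Its partner chain Col1a2 had 5.38 and 5.16 against 6.26 and 6.35, a difference of 1.03 (SE 0.25, 2.05-fold, adjusted p = 0.140). Col3a1, the chain of type III collagen, which forms fibrils together with type I, had 4.09 and 3.91 against 5.70 and 5.83 (1.76, SE 0.37, 3.39-fold, adjusted p = 0.118). In all 3 genes the gap between the groups exceeded the gap between replicates several times over. The type V chains, which start fibrils and set their width, were uneven. Col5a2 had -1.73 and -1.88 against -0.26 and -0.29, a difference of 1.53 (SE 0.29, 2.89-fold, adjusted p = 0.107). Col5a1 differed by 0.73 (SE 0.19, adjusted p = 0.148) and Col5a3 by 0.30 (SE 0.15, adjusted p = 0.310). The remaining fibrillar genes did not share the higher levels. Col11a2, a minor fibril chain, overlapped between the groups (-0.07), and Col27a1, a fibrillar collagen of cartilage, had -3.04 and -3.09 against -3.79 and -3.54 (-0.60, SE 0.41, adjusted p = 0.441).

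**Figure D1:**
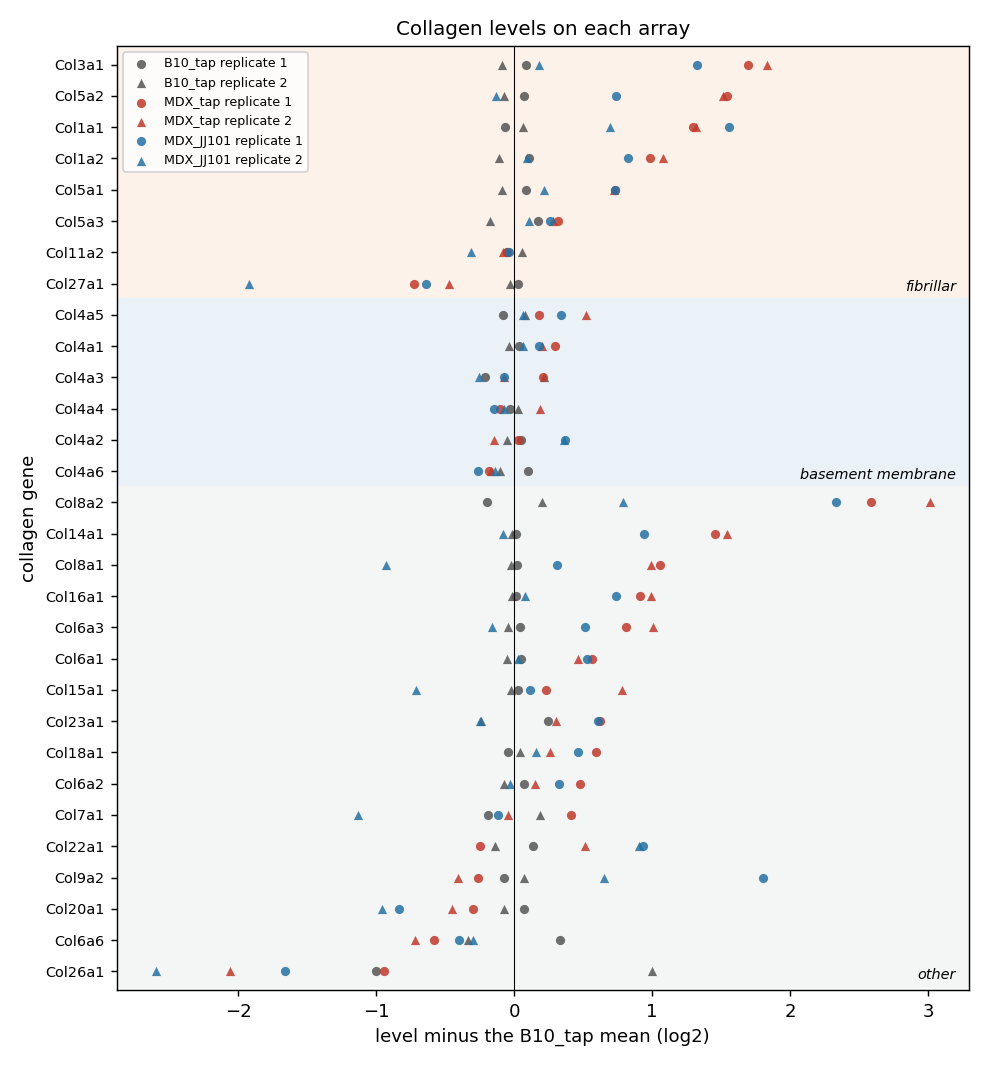
Level of each of the 30 tested collagens on each array, as a log2 difference from the gene's own B10_tap mean; circles are replicate 1, triangles replicate 2, and shading marks the 3 classes. In 18 genes both MDX_tap points lie to the right of both B10_tap points, type IV genes stay near 0, and MDX_JJ101 replicate 2 lies to the left of replicate 1 in 27 of 30 genes.

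The 6 basement membrane genes had a median difference of 0.06, and none differed by more than 0.35 in either direction. Col4a1, a chain of the type IV network found in nearly all basement membranes, had 4.21 and 4.14 in B10_tap and 4.47 and 4.38 in MDX_tap (0.25, SE 0.10, adjusted p = 0.252). Col4a2, which joins Col4a1 in that network, had 4.12 and 4.03 against 4.10 and 3.93 (-0.06, SE 0.11, adjusted p = 0.769). Col4a1 thus lay higher on both MDX_tap arrays while Col4a2 overlapped, although the genes share a promoter region. Col4a5 differed by 0.35 with arrays apart, Col4a6 by -0.18 with arrays apart, and Col4a3 and Col4a4 overlapped.

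Of the 16 tested collagens of other types, 10 had MDX_tap arrays wholly above B10_tap and 3 wholly below, with a median difference of 0.45. The short-chain network collagens differed most. Col8a2 read -3.88 and -3.48 in B10_tap against -1.10 and -0.67 in MDX_tap, 2.80 higher (SE 0.52, 6.95-fold, adjusted p = 0.106), the largest among the collagens. Its partner Col8a1 had -0.48 and -0.52 against 0.56 and 0.49 (1.02, SE 0.39, adjusted p = 0.231). Both genes, which encode the chains of type VIII collagen, were separated between the groups. Of the fibril-associated collagens, Col14a1, which binds the surface of type I fibrils, had 1.02 and 1.00 against 2.47 and 2.55 (1.50, SE 0.33, 2.83-fold, adjusted p = 0.124). Col16a1, which bridges fibrils and cells, differed by 0.95 (SE 0.22, adjusted p = 0.134). Type VI collagen, whose beaded filaments link fibre basement membranes to the fibrils around them, had 3 chains with separated arrays: Col6a1 had 3.93 and 3.82 against 4.44 and 4.34 (0.51, SE 0.19, adjusted p = 0.214). Col6a3 differed by 0.91 (SE 0.24, adjusted p = 0.148) and Col6a2 by 0.32 (SE 0.18, adjusted p = 0.365). Col6a6, a chain that can stand in for Col6a3, ran the other way, with -3.10 and -3.77 in B10_tap and no MDX_tap array well above background for the probe used (adjusted p = 0.210); another probe was well above background on 1 MDX_tap array. The multiplexins Col15a1 and Col18a1, basement membrane-associated collagens whose ends are released as antiangiogenic fragments, differed by 0.51 and 0.43 with arrays apart. Col26a1 gave the lowest difference, -1.50 (SE 0.77, adjusted p = 0.328), but its B10_tap arrays read -3.67 and -1.67 and overlapped with MDX_tap at -3.62 and -4.73. Without either MDX_JJ101 array, which changes only the estimate of spread here, 6 collagens (20.0%) passed in this comparison, all higher in MDX_tap: Col14a1, Col1a1, Col3a1, Col5a2, Col8a1 and Col8a2. Of all genes 0.431% were called higher and 0.168% lower in that fit.

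The second comparison asked whether JJ101 altered collagen transcripts in MDX muscle. It shares the MDX_tap arrays with the first comparison, so an array that reads high in MDX_tap moves both. The difference was below 0 for 26 of the 30 collagens and above 0 for 4 (below 0 for 28 with spike-in scaling and for 17 with each array centred on its median), with a median of -0.25 against 0.00086 over all genes. The MDX_JJ101 arrays lay wholly below those of MDX_tap in 13 collagens and wholly above in 4, and over all genes in 35.4% and 37.3%. By limma's test 2 collagens fell (Col5a2 and Col20a1) and 2 rose (Col9a2 and Col4a2), in a comparison in which 16.1% of all genes fell and 19.9% rose. The share of collagens called, 6.67% each way, was below that of all genes in both directions, but this order turned with the setting. Downward it was 36.7% against 18.1% of all genes with normexp and quantile normalization, 33.3% against 19.0% in the authors' deposited table of values, and 33.3% against 17.7% with spike-in scaling. Upward it was 3.33% against 0.374% with spike-in scaling. Another scaling shifts all genes together: the median over all genes was 0.23 with median centring and -0.43 with spike-in scaling, and the collagen median relative to it was -0.25 in both. With median centring 3 collagens rose and 2 fell, and with spike-in scaling 1 collagen rose and 10 fell; over all genes 5692 rose and 1898 fell with median centring, and 78 and 3693 with spike-in scaling.

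All 8 tested fibrillar genes had a difference below 0 (median -0.42), 5 of them with median centring, and in 4 the arrays were apart. Col5a2 had -0.26 and -0.29 in MDX_tap and -1.07 and -1.94 in MDX_JJ101, and fell by 1.23 (SE 0.29, 2.34-fold, limma adjusted p = 0.0289). Col3a1 had 5.70 and 5.83 against 5.33 and 4.18 (-1.01, SE 0.37, adjusted p = 0.0868), and Col1a2 had 6.26 and 6.35 against 6.10 and 5.37 (-0.57, SE 0.25, adjusted p = 0.129). Both MDX_JJ101 arrays of these genes read lower than either MDX_tap array, replicate 2 by far the more. Col1a1 had 4.11 and 4.13 against 4.37 and 3.50, so replicate 1 of MDX_JJ101 lay above and replicate 2 below both MDX_tap arrays (-0.18, SE 0.28, adjusted p = 0.632). Col27a1 and Col11a2 were not well above background on either MDX_JJ101 array.

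The type IV pair parted here. Col4a2 had 4.10 and 3.93 in MDX_tap and 4.44 on both MDX_JJ101 arrays, and rose by 0.43 (SE 0.11, 1.34-fold, adjusted p = 0.0358). Col4a1 had 4.47 and 4.38 against 4.36 and 4.24 (-0.13, SE 0.10, adjusted p = 0.360). The other 4 type IV genes overlapped between the groups, with differences from -0.23 to -0.02; Col4a3 was not well above background on either MDX_JJ101 array. With spike-in scaling the difference of Col4a2 was -0.0095 (adjusted p = 0.991), and it was 0.21 both with normexp and quantile normalization (adjusted p = 0.123) and in the authors' deposited values (adjusted p = 0.153).

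Among the other types, Col9a2 and Col20a1 passed. Col9a2, a chain of the fibril-associated type IX collagen best known from cartilage, had -3.09 and -3.23 in MDX_tap and -1.02 and -2.18 in MDX_JJ101, and rose by 1.56 (SE 0.37, 2.95-fold, adjusted p = 0.0307). Its partner chains Col9a1 and Col9a3 did not pass the filter, and of 7 cartilage and tendon markers 4 passed it. Of those markers Scx, a tendon transcription factor, rose by 0.62 (adjusted p = 0.0162), or by 0.18 with spike-in scaling (adjusted p = 0.813). Sox9, well above background on 1 MDX_JJ101 array, differed by -0.84. Acan and Chad were not well above background on either MDX_JJ101 array, so their readings of -0.43 and -0.55 do not size a fall. Matn3, Hapln1 and Tnmd were well above background on no array. The summed linear level of the 4, most of it Scx, was 6.71 and 5.93 in MDX_tap and 9.54 and 9.01 in MDX_JJ101. Scx read 2.62 and 2.48 in MDX_tap, then 3.21 and 3.13 in MDX_JJ101. Sox9, the brightest of the others, read -1.48 and -2.26, then -2.18 and -3.23. The part of these markers in the Col9a2 result was not tested. Col20a1, a fibril-associated collagen, had -2.48 and -2.64 in MDX_tap by its brighter probe, which was not well above background on either MDX_JJ101 array and gave at least 1.44-fold lower for that probe (adjusted p = 0.0264). Its other probe, well above background on 1 MDX_JJ101 array, differed by -0.30, so no bound holds for the gene. The call was lost with the mean over both probes (-0.41, adjusted p = 0.103) and with median centring (adjusted p = 0.158) or spike-in scaling (adjusted p = 0.0761). With normexp and in the authors' deposited values the difference was -0.05 (adjusted p = 0.744 and 0.765).

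Several collagens that stood high in MDX_tap lay lower in MDX_JJ101 without passing the test. Col8a1 had 0.56 and 0.49 in MDX_tap and -0.19 and -1.42 in MDX_JJ101 (-1.33, SE 0.39, adjusted p = 0.0506). Col8a2 had -1.10 and -0.67 against -1.35 and -2.89 (-1.24, SE 0.52, adjusted p = 0.116), and Col14a1 had 2.47 and 2.55 against 1.95 and 0.93 (-1.07, SE 0.33, adjusted p = 0.0556). In these 3 genes the groups did not overlap by the probes used, and replicate 2 again read the lower. Another probe of Col14a1, well above background on all 6 arrays, differed by only -0.27. Col6a3 differed by -0.73 (SE 0.24, adjusted p = 0.0636), whereas Col6a1, with 4.44 and 4.34 against 4.41 and 3.90, overlapped (-0.24, SE 0.19, adjusted p = 0.351). Col22a1, a collagen of the muscle-tendon junction, lay above MDX_tap, with -3.03 and -2.27 against -1.86 and -1.88 (0.78, SE 0.27, adjusted p = 0.0725).

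The 4 calls of this comparison rest on few arrays. None of them passed with only the 2 groups fitted, where 8.42% of all genes rose and 7.14% fell. With the slide column as a block 0 of all genes passed. That fit leaves 1 residual degree of freedom, so it cannot tell whether these calls hold. Without MDX_tap replicate 1 Col5a2 differed by -1.21, Col4a2 by 0.51, Col9a2 by 1.63 and Col20a1 by -0.45. Without MDX_tap replicate 2 the differences were -1.24, 0.34, 1.49 and -0.60. Within slide column 3 (replicate 1 of each group) Col5a2 differed by -0.81, Col4a2 by 0.34, Col9a2 by 2.07 and Col20a1 by -0.54, and within column 4 (replicate 2) by -1.64, 0.51, 1.06 and -0.51. Of the 30 collagens, 22 lay below 0 in column 3 (median -0.12) and 25 in column 4 (median -0.51). Without MDX_JJ101 replicate 1, 16 collagens passed, 15 lower and 1 higher, where 18.2% of all genes were lower and 18.7% higher, the median was -0.55 and Col9a2 differed by 0.98. Without MDX_JJ101 replicate 2, 4 passed (Col14a1, Col5a2 and Col8a1 lower, Col9a2 higher) beside 8.30% of all genes lower and 9.63% higher, the median was -0.08, Col5a2 differed by -0.79 and Col9a2 by 2.14.

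**Figure D2:**
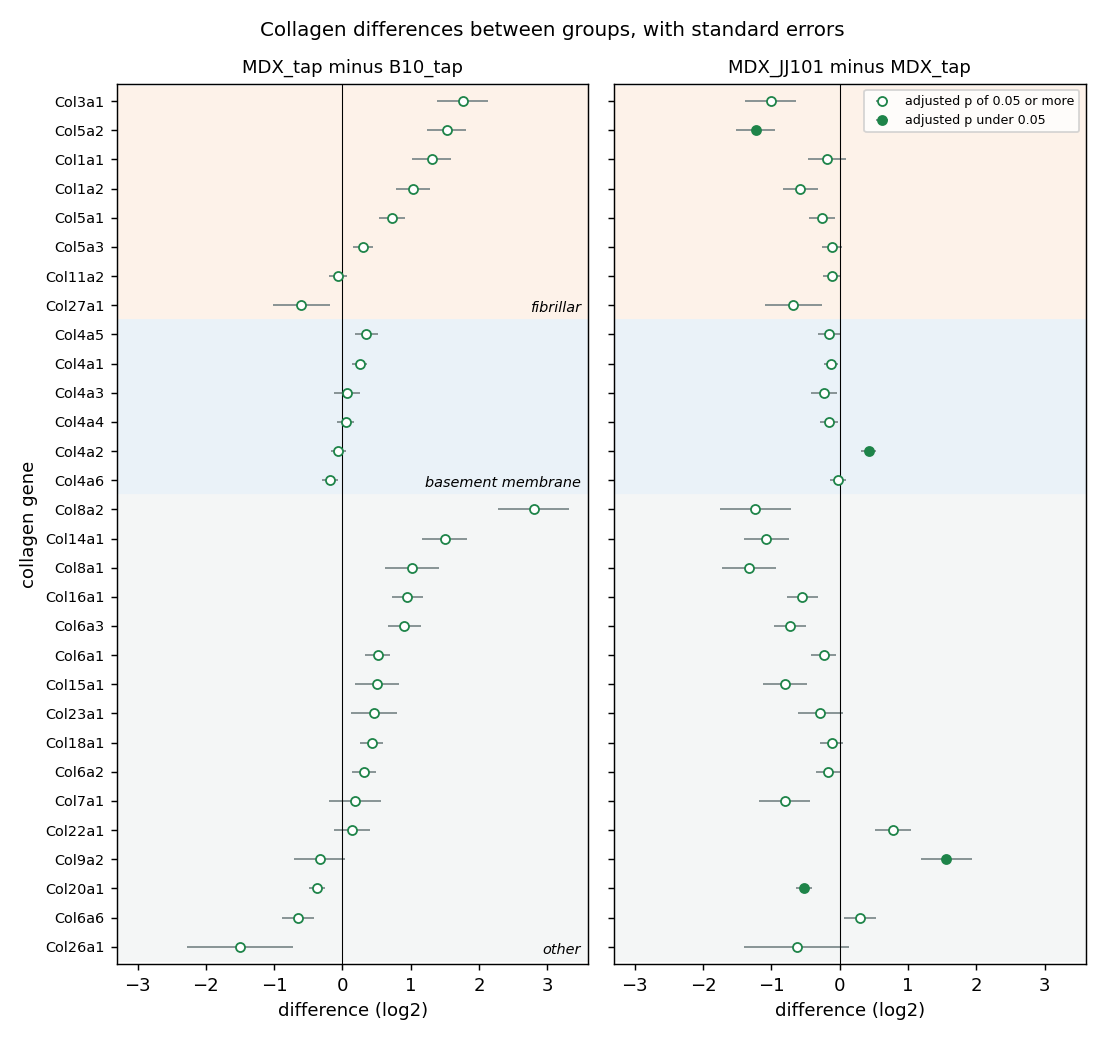
Log2 difference between group means for each tested collagen, MDX_tap minus B10_tap on the left and MDX_JJ101 minus MDX_tap on the right, with bars of 1 standard error; filled points passed limma's test. None is filled on the left, while Col5a2, Col20a1, Col9a2 and Col4a2 are filled on the right; the panels share the MDX_tap arrays, and dim genes are drawn at their measured value although only a bound holds for them.

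The MDX_JJ101 arrays lay further apart in their collagens than the arrays of the other groups. Over all genes the SD of the difference between replicates was 0.48 in MDX_JJ101, 0.29 in B10_tap and 0.37 in MDX_tap. Replicate 2 read lower than replicate 1 in 27 of 30 collagens (90.0%), with a median of -0.59, whereas over all genes it read lower in 49.3%, with a median of 0.0046. The gap exceeded 0.5 in 17 collagens. These counts include genes dim in MDX_JJ101: of the 22 collagens well above background on both of its arrays, 20 (90.9%) were lower in replicate 2, with a median of -0.59, and 13 by over 0.5, against 48.0% lower among all genes so detected. All 8 fibrillar genes were lower in replicate 2 (median -0.79), as were 15 of 16 genes of other types (median -0.75) but only 4 of 6 type IV genes (median -0.06). Among the 22 detected collagens the largest gaps were in Col8a2 (-1.54), Col8a1 (-1.23), Col9a2 (-1.15) and Col3a1 (-1.15). Between the B10_tap arrays 20 of 30 collagens were lower in replicate 2, with a median of -0.06, and between the MDX_tap arrays 17, with a median of -0.03. No test was made of these gaps, since each pair is 1 difference.

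**Figure D3:**
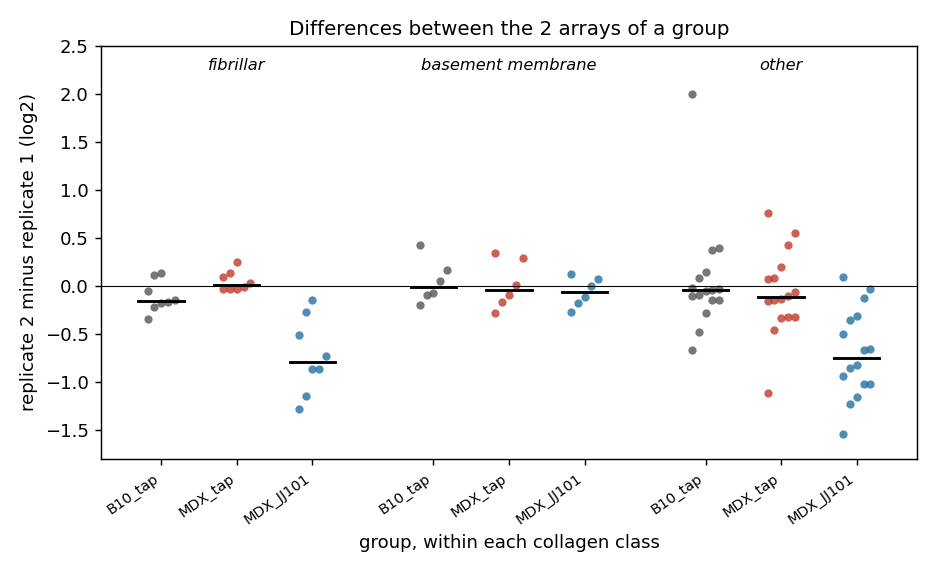
Replicate 2 minus replicate 1 (log2) for each tested collagen, by class and group; each point is a gene and the black line its median. In MDX_JJ101 the fibrillar median lies at -0.79 and that of other types at -0.75, while every other median lies between -0.16 and 0.01.

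Of the 18 collagens with MDX_tap arrays wholly above B10_tap, MDX_JJ101 replicate 1 lay above the midpoint of the tap water means in 15 (83.3%) and above both B10_tap arrays in 18. Replicate 2 lay above the midpoint in 1, Col1a1, and above both B10_tap arrays in 7. For the 5091 genes of the whole array with the same separation, the shares above the midpoint were 47.8% and 38.0%. Relative to the B10_tap mean, the median over the fibrillar genes was 0.86 and 0.90 on the MDX_tap arrays, 0.73 on MDX_JJ101 replicate 1 and 0.10 on replicate 2. With the main scaling, the fibrillar median of replicate 1 thus lay nearer MDX_tap and that of replicate 2 nearer B10_tap. Single genes differed: Col5a2 replicate 1 lay below its midpoint (-1.07 against -1.04) and Col1a1 replicate 2 above its own (3.50 against 3.47). The fibrillar median of MDX_JJ101 minus B10_tap was 0.38, but 0.78 with median centring and -0.08 with spike-in scaling. These 18 genes were picked by their values, so the counts are a description only.

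The third comparison set MDX_JJ101 against B10_tap and shares its arrays with both others. The difference was above 0 for 19 of 30 collagens and below 0 for 11 (above 0 for 26 with median centring and for 6 with spike-in scaling), with a median of 0.18 against -0.0064 over all genes. Arrays were apart upward in 10 collagens and downward in 5, and over all genes in 37.9% and 37.3%. By limma's test 1 collagen was higher and 1 lower, where 16.2% of all genes were higher and 17.4% lower. Col1a1 had 2.75 and 2.88 in B10_tap and 4.37 and 3.50 in MDX_JJ101, and was higher by 1.12 (SE 0.28, 2.18-fold, adjusted p = 0.0368). Both MDX_JJ101 arrays lay above both B10_tap arrays. The call was lost with spike-in scaling (0.66, adjusted p = 0.253), with the replicate block (adjusted p = 0.0513) and with only the 2 groups fitted or either MDX_tap array left out (adjusted p = 0.0660). Col20a1 had -2.12 and -2.26 in B10_tap by its brighter probe, at least 1.86-fold above MDX_JJ101 for that probe (adjusted p = 0.0115), while its other probe, detected on 1 MDX_JJ101 array, differed by -0.48. With normexp the difference was -0.13 (adjusted p = 0.393) and in the authors' deposited values -0.12 (adjusted p = 0.474). The median over all genes was 0.39 with median centring and -0.47 with spike-in scaling, and the collagen median was 0.58 and -0.28; relative to all genes it was 0.19 under each. With median centring 17 collagens were called higher (56.7%) and 1 lower (3.33%), where 40.5% and 7.88% of all genes were. With spike-in scaling 1, Col8a2, was higher and 4 lower (13.3%), where 0.503% and 20.8% of all genes were.

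The other collagens with large differences from B10_tap did not pass. Col8a2 had -3.88 and -3.48 against -1.35 and -2.89 (1.56, SE 0.52, adjusted p = 0.0698), and Col9a2 had -2.90 and -2.75 against -1.02 and -2.18 (1.23, SE 0.37, adjusted p = 0.0567). Col22a1 differed by 0.92 (SE 0.27, adjusted p = 0.0510) and Col4a2, with 4.12 and 4.03 against 4.44 on both arrays, by 0.36 (SE 0.11, adjusted p = 0.0539). In each of these 4 genes the MDX_JJ101 arrays lay wholly above those of B10_tap. Col26a1 and Col27a1 were not well above background on either MDX_JJ101 array. Against the B10_tap means they were at least 1.56-fold lower (adjusted p = 0.0861) and at least 1.19-fold lower (adjusted p = 0.0659). The Col26a1 bound rests on B10_tap replicate 2 (-1.67), since replicate 1 (-3.67) read below the dimmest detected signals of MDX_JJ101 (-3.33 and -3.29). Col3a1, which differed by 1.76 in the first comparison, differed by 0.75 here (SE 0.37, adjusted p = 0.168), and Col1a2 by 0.46 with overlapping arrays. Without B10_tap replicate 1 Col1a1 differed by 1.06, and without B10_tap replicate 2 by 1.19. Without MDX_JJ101 replicate 1, 6 passed, 2 of them higher, and Col1a1 differed by 0.69, where 15.0% of all genes were higher and 18.1% lower. Without replicate 2, 10 passed, 9 of them higher (30.0%), and Col1a1 differed by 1.55, where 7.09% of all genes were higher and 10.3% lower.

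The genes that process, export and bind collagen were followed as a list of 45, of which 40 were tested. In MDX_tap against B10_tap, 34 of the 40 had a difference above 0, with a median of 0.32. Arrays lay wholly above B10_tap in 30, where 24.4% of all genes did, and 0 passed limma's test. At an unadjusted p under 0.05 there were 17, all higher, beside 1803 of 20869 genes higher and 2580 lower. In MDX_JJ101 against MDX_tap 9 rose (22.5%) and 7 fell (17.5%), near the 19.9% and 16.1% of all genes, with a median of -0.12 (0.11 with median centring and -0.55 with spike-in scaling). With spike-in scaling 0 rose and 7 fell, and with normexp or in the authors' deposited values 5 rose and 13 fell. In MDX_JJ101 against B10_tap 12 were higher and 2 lower, beside 16.2% and 17.4% of all genes, with a median of 0.31 (-0.15 with spike-in scaling, where 0 were higher and 1 lower). In the second comparison the enzymes that modify the chains in the endoplasmic reticulum had 6 of 15 members that rose and 3 that fell, with a median of 0.26; with spike-in scaling 0 rose, 1 fell and the median was -0.17. Among them P4ha2, a catalytic subunit of prolyl hydroxylase, rose by 0.69 (adjusted p = 0.0157), Colgalt1, which adds galactose to hydroxylysine, rose by 0.62 (adjusted p = 0.0168), and its relative Colgalt2 fell by 0.85 (adjusted p = 0.0147). P4ha1, the other widely used prolyl hydroxylase subunit, differed by 0.46, 0.02 and 0.48 in the 3 comparisons and passed in none. In the third comparison Colgalt1 (0.79), Crtap (0.58), which acts in prolyl hydroxylation, and P4hb (0.57), the shared subunit of the prolyl hydroxylases, were higher and had the smallest p of that group.

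Of the folding and export genes, Mia2 and Mia3, which load bulky procollagen into transport vesicles, rose in MDX_JJ101 against MDX_tap by 0.56 and 0.46 (adjusted p = 0.0217 and 0.0458). They were higher than in B10_tap by 0.42 and 0.47, together with Fkbp14, a folding enzyme, by 0.41. With spike-in scaling Mia2 and Mia3 differed from MDX_tap by 0.13 and 0.03 (adjusted p = 0.874 and 0.974), and none of the pathway genes named here as risen or higher in MDX_JJ101 passed under it. Serpinh1, the collagen chaperone HSP47, differed by 0.73, -0.34 and 0.39 in the 3 comparisons and passed in none. Among the 6 tested genes of propeptide removal none passed against MDX_tap in the main fit. With normexp and in the authors' deposited values 4 fell, beside 18.1% and 19.0% of all genes. Adamts2 (-0.64 and -0.65) and Pcolce (-0.51 and -0.55) were among them. Adamts2, which trims the amino end of fibrillar procollagens (0.90, adjusted p = 0.0302), Adamts14 (0.66) and Pcolce (0.42) were higher in MDX_JJ101 than in B10_tap. The Pcolce call was lost with normexp (0.20, adjusted p = 0.187) and in the authors' values (0.18, adjusted p = 0.269). Bmp1, which trims the carboxyl end, differed by 0.41, -0.52 and -0.11 and passed in none. Lox, which crosslinks collagen, read -2.93 and -3.10 in B10_tap, -1.56 and -1.52 in MDX_tap, then -2.13 and -2.71 in MDX_JJ101. It differed by 1.47 between MDX_tap and B10_tap (adjusted p = 0.0788), fell by 0.88 in MDX_JJ101 against MDX_tap (adjusted p = 0.0291), and differed by 0.60 from B10_tap (adjusted p = 0.0770). The 3 groups did not overlap in Lox, and MDX_JJ101 lay between the others.

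Among the 7 tested collagen receptors, 3 fell and 1 rose in MDX_JJ101 against MDX_tap, beside 16.1% and 19.9% of all genes. Ddr2, a kinase receptor for fibrillar collagen, read 2.03 and 1.87 in B10_tap, 2.52 and 2.58 in MDX_tap, then 1.62 and 1.33 in MDX_JJ101, and fell by 1.07 (adjusted p = 0.0129). It differed by 0.60 between MDX_tap and B10_tap (adjusted p = 0.133) and by -0.47 between MDX_JJ101 and B10_tap (adjusted p = 0.0523). Itga1, the collagen-binding integrin subunit, fell by 0.85 (adjusted p = 0.0160), and Lair1, an inhibitory collagen receptor of immune cells, was the other that fell. Ddr1, the related kinase that also binds type IV collagen, rose by 0.42 (adjusted p = 0.0260; -0.01 and 0.989 with spike-in scaling) and was 0.74 higher than in B10_tap (adjusted p = 0.0111), where Itga1 was lower (-0.69).

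Markers of the cells that make collagen, and of others in the tissue, were measured on the same arrays. All 9 fibroblast markers were well above background on the 6 arrays. In MDX_tap against B10_tap 7 of the 9 had arrays wholly above B10_tap, beside 24.4% of all genes. The median was 0.53 and 0 passed limma's test. At an unadjusted p under 0.05 there were 4, all higher, beside 1803 of 20869 genes higher and 2580 lower. In MDX_JJ101 against MDX_tap all 9 had differences below 0 (median -0.66). Lum, Dcn and Pdgfra fell by 1.62, 1.25 and 0.66 (adjusted p = 0.0163, 0.0130 and 0.0309), the last not with median centring (adjusted p = 0.0810). These 3 of 9 stand beside 16.1% of all genes that fell. The summed linear level of the 9 markers reached 490 and 467 on the B10_tap arrays and 691 and 741 on the MDX_tap arrays. On the MDX_JJ101 arrays it was 406 and 283, below every other array with the main scaling. Dcn made up 65.6% to 79.3% of that sum. Without it the sums were 101 and 104, 170 and 178, and 139.5 and 88.2, with replicate 1 of MDX_JJ101 above B10_tap. Pi16 and Mfap5 lay wholly above B10_tap on both MDX_JJ101 arrays, by 0.72 and 0.76, neither past the test. Against B10_tap the median of the 9 markers was -0.28, but 0.12 with median centring and -0.74 with spike-in scaling. Dcn differed from B10_tap by -0.72 (limma adjusted p = 0.0319), and by -0.32 with median centring (adjusted p = 0.127). All 9 were lower in MDX_JJ101 replicate 2 than in replicate 1, with a median of -0.45.

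The 6 markers of activated fibroblasts all had MDX_tap arrays wholly above B10_tap, beside 24.4% of all genes, with a median of 2.16 and none past the test. At an unadjusted p under 0.05 there were 5, all higher, beside 1803 of 20869 genes higher and 2580 lower. Their summed level reached 41.2 and 39.1 in B10_tap, 69.2 and 84.4 in MDX_tap, then 74.9 and 71.2 in MDX_JJ101. Acta2, an actin that smooth muscle also makes, was 64.9% to 91.1% of that sum and differed by 0.23 between MDX_JJ101 and MDX_tap, while the other 5 markers differed by -1.75 to -1.07. Without Acta2 the sums were 6.89 and 7.44, 24.3 and 24.3, and 17.7 and 6.33. Cthrc1 and Tnc were well above background on no B10_tap array, Cthrc1 on no MDX_JJ101 array and Tnc on 1. Their readings there do not size a difference, although the medians and the range of this list include them. In MDX_JJ101 against MDX_tap the median of the 6 markers was -1.26 and Fap fell by 1.13 (adjusted p = 0.0165). Replicate 2 of MDX_JJ101 lay below replicate 1 in 5 of the 6, with a median of -1.52. The counts of called markers in MDX_JJ101 against MDX_tap, Fap included, stand beside 16.1% of all genes that fell and 19.9% that rose. Of 7 tested macrophage markers, all well above background on the 6 arrays, 4 fell and 1 rose in MDX_JJ101 against MDX_tap (median -0.60), and their summed level reached 105 and 100.4 in B10_tap, 161 and 125 in MDX_tap, then 109 and 100.5 in MDX_JJ101. Of 7 endothelial markers, likewise detected throughout, 5 fell (median -0.57; 3 fell with median centring and 3 with spike-in scaling), and the sums were 103 and 104, 104 and 101, and 75.1 and 67.1. Heart markers ran the other way, with 3 of 7 that rose (median 0.69) and sums of 2553 and 2546, 2529 and 2588, and 3261 and 3035. With spike-in scaling 0 of them rose, beside 0.374% of all genes. Most of each sum was Myh6 and Tnnt2. Myh6 read 10.17 and 10.30 in MDX_tap, then 10.28 and 10.32 in MDX_JJ101, and Tnnt2 9.74 and 9.86, then 9.91 and 10.06. Nppa differed more, with 8.97 and 8.52, then 9.99 and 9.34. The part of each of these lists in the collagen results was not tested.

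**Figure D4:**
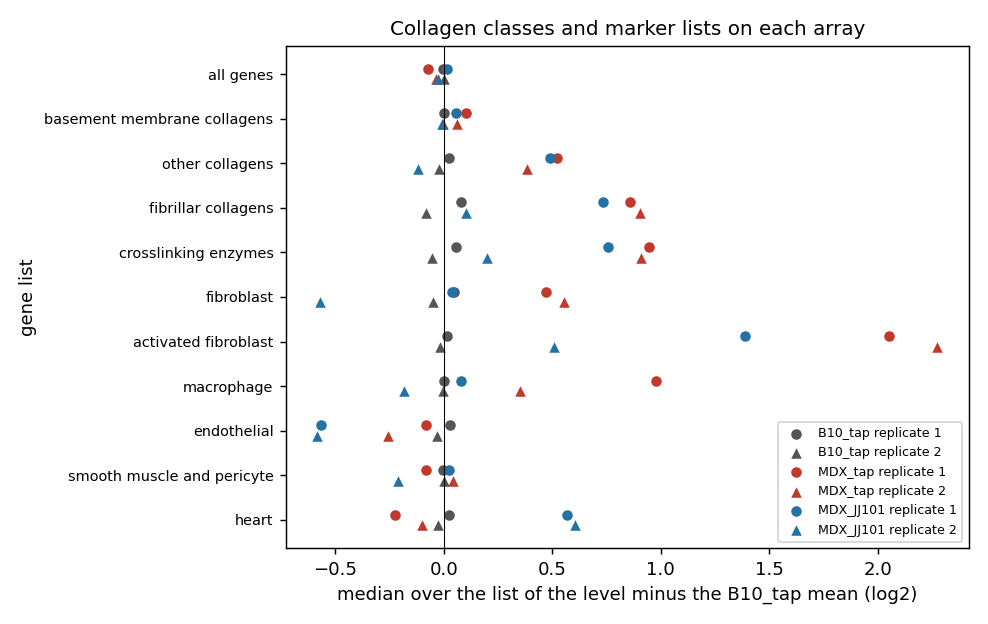
Median over each gene list of the level minus the B10_tap mean (log2), for each array. The fibrillar collagen medians stand at 0.86 and 0.90 on the MDX_tap arrays and at 0.73 and 0.10 on the MDX_JJ101 arrays, and the fibroblast and activated fibroblast medians also lie lower on MDX_JJ101 replicate 2 than on replicate 1.

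Where a collagen had several probes past the filter, they were compared. Col14a1, Col15a1, Col18a1, Col20a1 and Col4a4 kept 1 direction across their probes in the first comparison and in the second, with sizes that differed. The probes of Col14a1 gave 1.50 and 0.83 in MDX_tap against B10_tap, and -1.07 and -0.27 in MDX_JJ101 against MDX_tap. Col16a1 had probes at 0.95, 1.23 and -0.05 in the first comparison, the last of them well above background on 3 arrays. Col4a6 had a further probe, dimmer than the one used, that differed by 0.53 and -1.33 in the first and second comparisons where the probe used gave -0.18 and -0.02. Values for Col4a6 therefore hold for 1 probe only.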

How the data were processed

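RNA of 6 muscle samples was measured on Agilent Cy3 arrays. The deposited intensity values come from Agilent Feature Extraction 11.5.1.1, which the authors ran, per the submitters' processing notes. Per the file headers, the processed signal is background-subtracted and detrended, and the other deposited columns used are spot flags. The authors' deposited series table holds log2 values with unstated processing, whose column medians are 5.72, 5.72, 5.71, 5.72, 5.72 and 5.71; it served as an alternative.

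For the main values the processed signal was put on the log2 scale, and each array's 75th percentile over 59305 non-control spots was subtracted. Outlier spots were left out, which gave 8 missing values, and spots of a probe were averaged. Symbols came from RefSeq accessions in a GRCm38.p6 gene table, used for names alone since the array files give mm9 coordinates: 27656 of 55681 probes were named. Probes were kept where some group had both arrays well above background (27258 probes), and the brightest probe stood for a gene. No spot was saturated.

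The 3 groups were fitted together over all genes with limma 3.58.1 in R 4.3.3 (3 residual and 2.21 prior degrees of freedom), with two-sided tests and Benjamini-Hochberg adjustment at 0.05. For a group with no array well above background, a bound on the fold is given, computed against the mean of the arrays' lowest such signals, or the dim probe's own level where higher. The steps were tested on simulated data. Precision is limited by 2 arrays a group.

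Per-array values are given for Col1a1, Col1a2, Col3a1, Col4a1, Col4a2, Col6a1, every collagen that passed, and the 3 highest and 3 lowest of each comparison. Pathway genes are named up to 3 per sublist that passed, by smallest p, with Serpinh1, P4ha1, Lox, Bmp1 and Ddr2 always. Markers, and pathway genes beyond these, were named after their values were seen. The members and lists were chosen with earlier results of these data known. Of the other marker lists, in MDX_JJ101 against MDX_tap 2 of 6 tested smooth muscle and pericyte genes rose and 2 fell. Of Schwann cell genes 1 of 5 fell, of epicardium and valve genes 1 of 2 fell, and 0 of 4 epithelium genes could be tested. Over all genes 16.1% fell and 19.9% rose. Alternatives covered background correction, scaling, filter, probe choice, samples fitted, replicate number, slide column and leaving out each array; the array files hold no mean spot signal, so normexp (offset 50) used the median signal.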

Additional observations from a re-analysis of the deposited data

How the results depend on the processing

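The median collagen difference stayed above 0 between MDX_tap and B10_tap (0.19 to 0.51 over 16 alternatives) and below 0 between MDX_JJ101 and MDX_tap (-0.68 to -0.02 over 17).

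For MDX_tap against B10_tap, where 0 collagens passed, 6 passed with normexp and quantile normalization, 2 with the authors' table, 3 with median centring, 5 with spike-in scaling and 6 with only the 2 groups fitted; leaving out an array gave 0 to 6. For MDX_JJ101 against MDX_tap, with 4, the counts were 13 with normexp, 12 with the authors' table, 11 with spike-in scaling (median -0.68), 15 without a filter, 7 with probes above background on all arrays, 0 with 2 groups fitted and 0 with slide column as a block; leaving out an array gave 0 to 16 (medians -0.55 to -0.079). For MDX_JJ101 against B10_tap, with 2, they were 4 with normexp, 5 with the authors' table, 18 with median centring (median 0.58), 5 with spike-in scaling (median -0.28), 13 without a filter and 5 with probes above background on all arrays; leaving out an array gave 0 to 10 (medians -0.05 to 0.35). Col4a2 reversed in MDX_JJ101 against MDX_tap with spike-in scaling (-0.0095). Without a filter, 13 of the 15 and 12 of the 13 calls were higher in MDX_JJ101. These were 30.2% and 27.9% of 43 collagens, beside 28.4% and 27.9% of all genes called higher. That setting adds the 13 collagens that did not pass the filter. For Col2a1, well above background on no array, the MDX_JJ101 arrays read -5.47 and -5.40. The MDX_tap arrays read -6.13 and -5.96 for it, and the B10_tap arrays -6.27 and -6.18. Group means of the other added genes kept this order, except Col9a1 and Col25a1. The cause of the changes in count between settings was not tested.

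The replicate numbers did not pair the samples: same-numbered arrays had correlations of deviations of -0.03, -0.06 and 0.16. With the replicate block 0, 4 and 1 collagens passed in the 3 comparisons.

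Over all genes, the counts ran from 0 to 413 (5 as reported), 0 to 13640 (7529) and 76 to 14092 (7008). Of 472, 502 and 472 values of single collagens under alternatives, 11, 20 and 36 changed sign, in 7, 13 and 20 genes; 0, 35 and 11 lost a call and 34, 53 and 47 gained one. Signal over background limits the dim genes: 22 of 43 collagens could be followed on all arrays.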
